A study of Mus musculus with 13 samples.

Results

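Otx1, Otx2, Emx1, Emx2, En1, En2, Gbx1, Gbx2, Vax1 and Dmbx1 are homeobox genes that mark regions of the developing brain. These 10 genes were picked by name out of the 22367 protein-coding genes of GENCODE vM1 on the mm9 mouse genome, and all 10 were found there. For each gene the peaks of every list were collected over the promoter, taken as 1 kb on either side of the start of the gene record, and over the gene body. The study mapped AEBP2, an accessory subunit of Polycomb repressive complex 2 (PRC2), by ChIP-seq in mouse embryonic stem cells (mESCs) and asked whether it sits at PRC2 target genes. ChIP-seq recovers DNA bound by a protein or carrying a histone mark, and a peak is a stretch where the recovered DNA piles up above background. Lists of peaks were used from 5 of the 13 samples, namely a pair of replicates for endogenous AEBP2, another pair for H3K27me3, and a single sample of FS2-AEBP2. SUZ12, the inputs and the AEBP2 KO cells were not analysed here.

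All 5 samples are labelled as a wild-type 129/1 XY ES cell line grown in serum with LIF on gelatine, with no treatment. AEBP2 was recovered with a polyclonal antibody raised in the study against the whole mouse protein, and the mark with a commercial antibody that the labels call anti-H3K27 and the study calls H3K27me3. FS2-AEBP2 is AEBP2 with an N-terminal Flag-StrepII tag. The methods describe its expression from a pCAG plasmid in E14 mESCs for protein work, whereas the labels give the 129/1 line for its ChIP, so its host line is uncertain. Its ChIP also followed another protocol than that of the endogenous targets, and differences between FS2-AEBP2 and AEBP2 cannot be told apart from tag, protocol and line. The labels call the endogenous samples replicates, and the design text calls them biological.

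The lists held 2877 (AEBP2 replicate 1), 6779 (AEBP2 replicate 2), 2884 (FS2-AEBP2), 14112 (H3K27me3 replicate 1) and 9275 (H3K27me3 replicate 2) usable peaks. Reads per sample are not in the lists, so depth is unknown. A missing peak means that none was called, not that the protein or mark was absent. Peak records hold narrower inner blocks, and lengths and coverage here use the outer span. At the 10 genes, these blocks filled a median of 54.3% to 74.3% of the promoter peak, by list. In AEBP2 replicate 1 the start of the gene lay in a block at 2 of the 10. The count was 7 in AEBP2 replicate 2, 6 for FS2-AEBP2 and 7 in each H3K27me3 replicate. No such share over other genes was computed. Each peak carries a whole-number score whose scale is not stated, so a peak is described by its score rank, the percentage of peaks of its own list with a lower score. Of 12 markers of pluripotent cells, 11 were found in the annotation, and 0 of them had an H3K27me3 peak of both replicates at the promoter. Since 15.0% of all protein-coding genes had one, and 15314 of 22367 had no peak of any list, this count says little about the cell type. The exception to an empty record was Klf4, with peaks of 675 bp for FS2-AEBP2 and 602 bp for H3K27me3 replicate 1.

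PRC2 places methyl groups on lysine 27 of histone H3, a mark found over CpG islands of developmental genes that are silent or held at a low level. AEBP2 belongs to the PRC2.2 form of the complex, together with JARID2. In the embryo, Otx genes act in the forebrain and midbrain, Emx genes in the dorsal forebrain, En genes at the border of midbrain and hindbrain, and Gbx genes mainly behind that border, where Gbx2 and Otx2 oppose each other. Otx2 and Gbx2 are also known to be transcribed in mESCs, while the other genes are known mainly from embryonic tissues.

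The sequences below are shown because some promoters of the group hold fewer CpG just before the start than the median promoter. The peaks at Gbx2 also part from its annotated start. The 250 bases before the start of the gene record are given for Otx2 and Gbx1, which had 6 CpG there, as did Vax1. They are also given for Gbx2, which had the fewest of the group. The last line is the first 250 coding bases of Gbx2. All are read from the mm9 genome, 5′ to 3′ on the strand of the gene, and capitals mark each CpG.
Otx2 upstream, chr14:49287320-49287569, minus strand: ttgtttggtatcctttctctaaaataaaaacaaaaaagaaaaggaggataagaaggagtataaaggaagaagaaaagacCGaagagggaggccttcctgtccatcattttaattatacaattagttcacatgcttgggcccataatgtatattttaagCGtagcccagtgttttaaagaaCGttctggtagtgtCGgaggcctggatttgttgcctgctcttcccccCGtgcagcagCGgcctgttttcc
Gbx1 upstream, chr5:24033095-24033344, minus strand: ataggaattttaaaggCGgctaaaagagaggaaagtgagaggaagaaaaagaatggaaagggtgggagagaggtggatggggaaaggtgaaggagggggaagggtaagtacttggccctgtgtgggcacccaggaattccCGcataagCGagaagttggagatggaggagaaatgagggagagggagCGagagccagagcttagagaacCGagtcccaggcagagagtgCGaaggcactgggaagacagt
Gbx2 upstream, chr1:91829866-91830115, minus strand: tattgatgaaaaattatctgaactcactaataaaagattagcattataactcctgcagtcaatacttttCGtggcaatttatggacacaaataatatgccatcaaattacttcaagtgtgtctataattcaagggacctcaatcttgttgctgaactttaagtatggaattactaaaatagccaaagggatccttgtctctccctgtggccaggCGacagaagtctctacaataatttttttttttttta
Gbx2 coding, chr1:91827081-91827330, minus strand: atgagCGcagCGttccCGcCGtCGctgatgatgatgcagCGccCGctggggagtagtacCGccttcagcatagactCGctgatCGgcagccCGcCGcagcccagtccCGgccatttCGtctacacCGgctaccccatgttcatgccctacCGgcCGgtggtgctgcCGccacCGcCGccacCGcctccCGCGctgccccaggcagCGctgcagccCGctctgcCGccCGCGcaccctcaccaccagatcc
The upstream stretches hold 6 CpG and 42% G and C in Otx2, 6 CpG and 52.8% in Gbx1, and 2 CpG and 33.2% in Gbx2. The median over all protein-coding promoters was 8 CpG. Fewer than 6 CpG were found in 40.5% of these promoters and fewer than 2 in 16.6%. Vax1 aside, the members not shown were at or above the median. Their upstream stretches held 8 CpG in Emx1, 17 in Otx1, 22 in En1, 23 in Dmbx1, 24 in Emx2 and 25 in En2. The coding stretch of Gbx2 holds 28 CpG and 70.4% G and C.

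All 10 brain regional homeobox genes carried H3K27me3 at the promoter in both replicates, where 15.0% of all protein-coding genes did. AEBP2 was called in both replicates at 9 of the 10, against 8.44% of all protein-coding genes, and FS2-AEBP2 at 10 of 10, against 6.53%. A peak of all 5 lists was present at 9 of 10, against 4.57%. The exception was Gbx2, which lacked a peak of AEBP2 replicate 1. List by list, AEBP2 replicate 1 marked 9 of 10 (9.08% of all genes), AEBP2 replicate 2 marked 10 (22.3%), H3K27me3 replicate 1 marked 10 (17.0%) and H3K27me3 replicate 2 marked 10 (17.7%). The peak lists hold no read counts. The 10 genes, and the context genes further below, were chosen by name with earlier results of these data known. The counts are therefore set beside the background without a test.

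The background was also narrowed to promoters that resemble those of the group. Among the 12095 genes with a CpG-island-like promoter, AEBP2 marked 15.9% in replicate 1, 39.0% in replicate 2 and 14.8% in both. In the same genes, FS2-AEBP2 marked 11.3%, H3K27me3 marked 24.2% and 27.3% in its replicates and 23.2% in both, and all 5 lists marked 7.94%. Among the 3349 genes with H3K27me3 in both replicates, AEBP2 marked 40.9% in replicate 1, 68.3% in replicate 2 and 39.3% in both, FS2-AEBP2 marked 38.2% and all 5 lists marked 30.5%. The 9 of 10 members with AEBP2 in both replicates and the 10 of 10 with FS2-AEBP2 thus compare with 39.3% and 38.2% of genes that carry the mark.

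**Figure D1:**
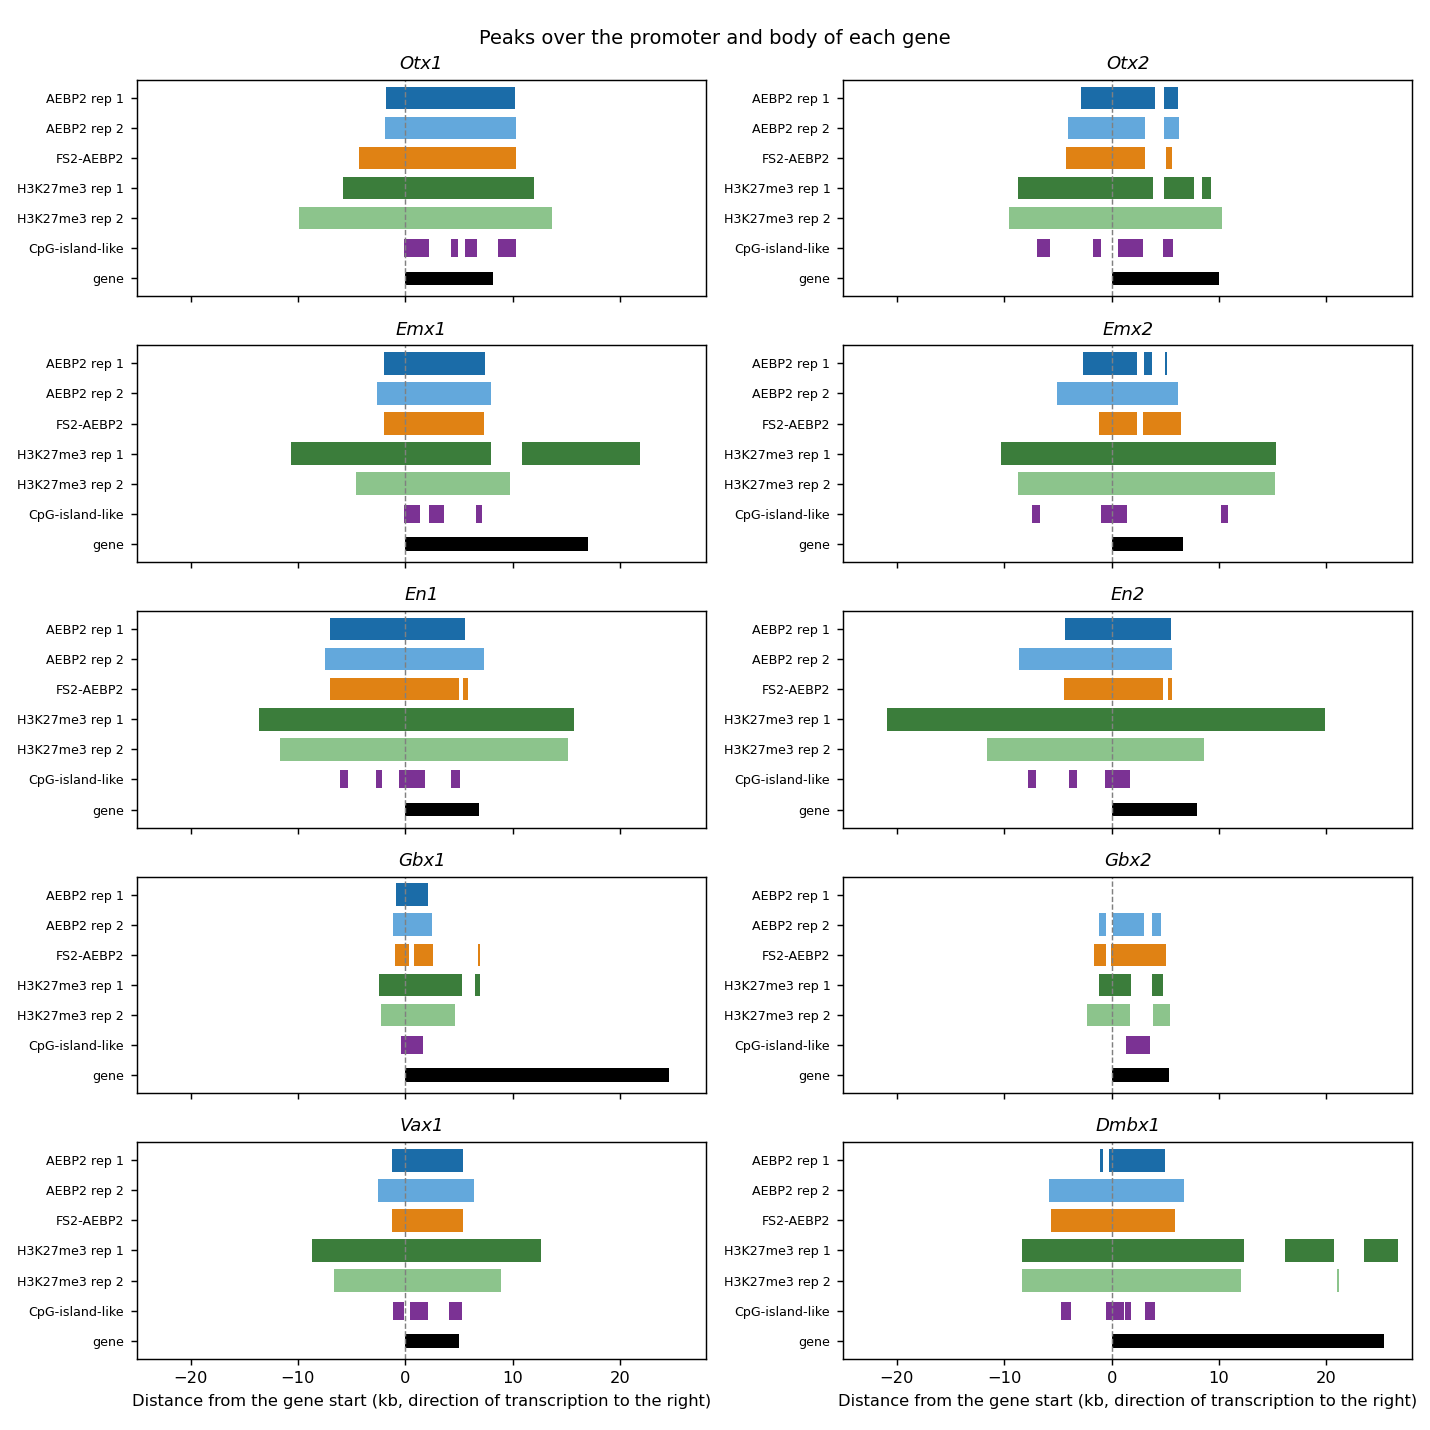
Peaks of the 5 lists that overlap the promoter or body of each of the 10 genes, drawn to scale against distance from the start of the gene record in kb, with transcription to the right; purple bars are CpG-island-like regions and black bars the annotated gene. By outer span, peaks of all lists cover the start of the gene in 9 of the 10. The H3K27me3 peak is longer than the AEBP2 peaks at those 9, and Gbx1 and Gbx2 have the shortest H3K27me3 peaks.

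Otx1 and Otx2 encode homeodomain factors required for forebrain and midbrain identity. Otx1 (ENSMUSG00000005917, chr11:21894767-21902900, minus strand) lay wholly inside a peak of every list. The AEBP2 peak at its promoter was 11941 bp long in replicate 1 and 12203 bp in replicate 2, the FS2-AEBP2 peak 14574 bp, and the H3K27me3 peak 17799 bp and 23576 bp. The AEBP2 replicates shared 97.9% of their joint extent at Otx1, the closest fit among the 9 genes with both. Otx1 also had the highest FS2-AEBP2 score rank of the group, with 99.5% of the list below it.

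Otx2 (ENSMUSG00000021848, chr14:49277354-49287319, minus strand) had AEBP2 peaks of 6844 bp and 7154 bp at the promoter, an FS2-AEBP2 peak of 7349 bp, and H3K27me3 peaks of 12589 bp and 19854 bp. AEBP2 and FS2-AEBP2 formed a separate, shorter peak in the body, 1268 bp and 1342 bp long in the AEBP2 replicates and 544 bp long for FS2-AEBP2. Its score rank was 47.2% in AEBP2 replicate 1, 0% in AEBP2 replicate 2, the floor of that list, and 9.36% for FS2-AEBP2. H3K27me3 replicate 1 was split there too, into 3 peaks over the gene, while replicate 2 covered 100% of it with 1 peak. Otx2 has 7 annotated protein-coding starts, more than any other member. Of these, the start 4772 bp into the gene record fell between the peaks of AEBP2, FS2-AEBP2 and H3K27me3 replicate 1 and lay inside a peak of H3K27me3 replicate 2 only. The AEBP2 score ranks of Otx2 were 67.7% and 76.7%, below the group medians of 88.3% and 90.6%.

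Emx1 and Emx2 encode factors of the developing cerebral cortex. Emx1 (ENSMUSG00000033726, chr6:85137432-85154456, plus strand) had AEBP2 peaks of 9399 bp and 10564 bp, an FS2-AEBP2 peak of 9310 bp, and H3K27me3 peaks of 18664 bp and 14388 bp. AEBP2 stopped 7383 bp and 7927 bp past the start, so that 43.4% and 46.6% of the gene body were covered. Its score ranks were high in all lists, from 94.3% in AEBP2 replicate 1 to 99.1% for FS2-AEBP2.

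Emx2 (ENSMUSG00000043969, chr19:59533180-59539847, plus strand) showed a large gap between replicates for AEBP2. Its promoter peak was 5080 bp long in replicate 1 and 11318 bp in replicate 2, and replicate 1 carried 2 further short peaks of 727 bp and 220 bp in the body instead of a continuous one. FS2-AEBP2 was likewise split into peaks of 3595 bp and 3551 bp, and joining peaks within 1 kb gave 15164 bp. H3K27me3 was continuous in both replicates, at 25644 bp and 23940 bp. Emx2os, an antisense lincRNA that starts 55 bp upstream of Emx2 on the other strand, was the only other annotated gene whose start lay in the H3K27me3 promoter peak of a member. Peaks have no strand, so signal at this shared promoter cannot be assigned to either gene.

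En1 and En2 encode the Engrailed factors of the midbrain and anterior hindbrain and had the longest mean H3K27me3 peaks of the group, for En2 through replicate 1. En1 (ENSMUSG00000058665, chr1:122498995-122505873, plus strand) had H3K27me3 peaks of 29370 bp and 26787 bp, and AEBP2 peaks of 12539 bp and 14866 bp. Its FS2-AEBP2 peak was 11992 bp long, and score ranks lay between 92.9% and 95.7% in all lists. The mean AEBP2 length at En1, 13702.5 ± 1645 bp (SD, n = 2), was the longest mean of the 9 genes with both replicates, but its range overlapped those of En2 and Dmbx1, so its place was not resolved from theirs.

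En2 (ENSMUSG00000039095, chr5:28492236-28500152, plus strand) had AEBP2 peaks of 9821 bp and 14213 bp and an FS2-AEBP2 peak of 9177 bp, which became 14063 bp with peaks within 1 kb joined. Its H3K27me3 peaks were 40798 bp in replicate 1 and 20141 bp in replicate 2, where En1, Emx2, Otx1 and Dmbx1 had longer ones. The H3K27me3 replicates shared 49.4% of their joint extent, the lowest of the group. The peak of replicate 1 reached 20928 bp upstream and 19869 bp downstream of the start, and that of replicate 2 reached 11572 bp and 8568 bp.

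Gbx1 and Gbx2 encode factors of the hindbrain and spinal cord and had the shortest H3K27me3 peaks. Gbx1 (ENSMUSG00000067724, chr5:24008575-24033094, minus strand) had AEBP2 peaks of 2947 bp and 3668 bp and H3K27me3 peaks of 7735 bp and 6953 bp. FS2-AEBP2 was split at Gbx1 into a peak of 1318 bp over the start and one of 1810 bp beginning 770 bp downstream, or 3579 bp with peaks within 1 kb joined. The gene record is 24520 bp long, and the AEBP2 peaks covered 8.41% and 10.1% of it. Despite these lengths, the H3K27me3 score ranks of Gbx1 were 93.7% and 97.1%, close to the group medians of 93.3% and 96.4%. Its upstream stretch has 6 CpG, and the promoter holds a CpG-island-like region of 2050 bp that begins 439 bp before the start.

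Gbx2 (ENSMUSG00000034486, chr1:91824537-91829865, minus strand) differed most from the rest. AEBP2 replicate 1 had no peak over its promoter or body, and its only peak within 10 kb of the start lay 8948 bp to 7823 bp upstream. AEBP2 replicate 2 had peaks of 636 bp and 2939 bp at the promoter, separated by a gap of 639 bp that held the start of the gene record, and 5731 bp in 1 peak once peaks within 1 kb were joined. FS2-AEBP2 had peaks of 1092 bp and 5141 bp, with a gap of 467 bp that ended 53 bp before the start. The upstream stretch of Gbx2 printed above was accordingly covered to 0% by either AEBP2 replicate and to 20.8% by FS2-AEBP2.

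Over the upstream and coding stretches printed above, H3K27me3 at Gbx2 was arranged the other way round. The peaks also overlapped in part. Of the AEBP2 replicate 2 and FS2-AEBP2 promoter peaks, 54.3% to 58.0% lay inside H3K27me3. The marked peak at the start was 2909 bp long in replicate 1 and 4053 bp in replicate 2, and covered 100% of the upstream stretch in both. It ended 1762 bp and 1732 bp into the gene, and a gap of 2021 bp or 2159 bp followed before the next H3K27me3 peak. The coding stretch of Gbx2 printed above lay in this gap, with 0% covered in both H3K27me3 replicates, and was covered to 100% by AEBP2 replicate 2 and by FS2-AEBP2. The CpG-island-like region of Gbx2 runs from 1311 bp to 3560 bp inside the gene record, across the end of the 5′ UTR and the start of the coding sequence. It was covered to 0% by AEBP2 replicate 1, 77.8% by AEBP2 replicate 2, 100% by FS2-AEBP2, and 20.1% and 18.8% by H3K27me3.

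The RefSeq start of Gbx2, found by an exact match of the RefSeq promoter sequence to mm9, lies 2114 bp inside the GENCODE record, at position 91827751 of chromosome 1. It fell inside the peaks of AEBP2 replicate 2 and FS2-AEBP2 and outside those of AEBP2 replicate 1 and both H3K27me3 replicates. A peak of AEBP2 replicate 2 without one of replicate 1 was seen at 973 of the 3349 promoters with H3K27me3 in both replicates, and at 217 of these FS2-AEBP2 was present too. The pattern of calls at Gbx2 was thus shared with other genes. AEBP2 replicate 2 has more peaks in all than replicate 1, and the part of depth or threshold in the missing call was not tested.

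**Figure D2:**
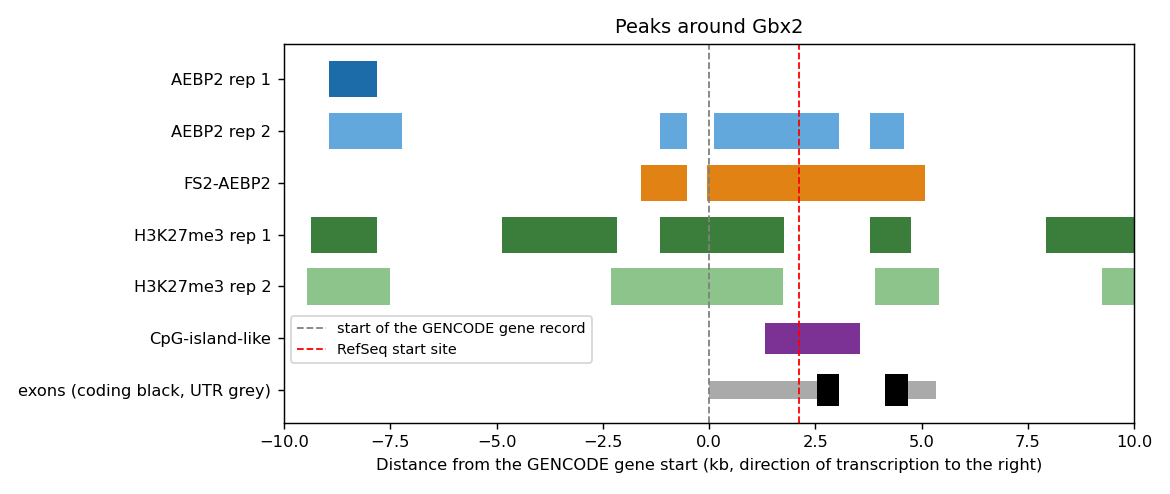
Peaks within 10 kb of the GENCODE start of Gbx2, with distance in kb on the horizontal axis, transcription to the right and 1 line per list; the dashed lines mark the GENCODE and RefSeq starts, and the bottom lines show the CpG-island-like region and the exons. The AEBP2 replicate 2 and FS2-AEBP2 peaks lie over the CpG-island-like region, where both H3K27me3 replicates have a gap of 2021 bp and 2159 bp.

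Vax1 encodes a factor of the ventral forebrain and optic stalk. Vax1 (ENSMUSG00000006270, chr19:59240677-59245626, minus strand) lay wholly inside a peak of every list, as Otx1 did. Its AEBP2 peaks were 6654 bp and 8862 bp long, its FS2-AEBP2 peak 6559 bp, and its H3K27me3 peaks 21372 bp and 15529 bp. It had the highest H3K27me3 score ranks of the group, 98.2% and 99.0%. Vax1 and Emx2 lie on the same chromosome with starts 287554 bp apart, and their promoter peaks were separate in every list.

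Dmbx1 encodes a factor of the midbrain and diencephalon. Dmbx1 (ENSMUSG00000028707, chr4:115587149-115612531, minus strand) had AEBP2 peaks of 5185 bp in replicate 1, beside a shorter peak of 268 bp, and of 12573 bp in replicate 2. They shared 41.2% of their joint extent, the lowest of the group. With peaks within 1 kb joined, the replicate 1 peak became 10270 bp and that of replicate 2 stayed at 12573 bp. The FS2-AEBP2 peak of Dmbx1 was 11481 bp long. The H3K27me3 peaks, 20711 bp and 20375 bp, shared 98.4%, the highest of the group. The AEBP2 score ranks, 67.7% and 71.1%, were among the lowest, while the H3K27me3 ranks were 91.1% and 98.1%. A further annotated start 14288 bp inside the gene was covered by none of the 5 lists.

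The promoter peaks of the group were long beside those of other genes. The median AEBP2 peak measured 6844 bp in replicate 1 and 10941 bp in replicate 2, the median FS2-AEBP2 peak 8263 bp, and the median H3K27me3 peak 19687.5 bp in replicate 1 and 19997.5 bp in replicate 2. In the same order of lists, the medians over all promoters with a peak were 1243.5 bp, 872 bp, 1409 bp, 4864 bp and 3970.5 bp. Restricted to genes with H3K27me3 in both replicates, these were 2027 bp, 1912 bp, 1632 bp, 5274 bp and 4641 bp. Members lay above the median of all promoters in 9 of 9 cases in AEBP2 replicate 1, 10 of 10 in AEBP2 replicate 2, 10 of 10 for FS2-AEBP2, 9 of 10 in H3K27me3 replicate 1 and 10 of 10 in H3K27me3 replicate 2. The exception was Gbx2, whose 2909 bp was shorter than that median.

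**Figure D3:**
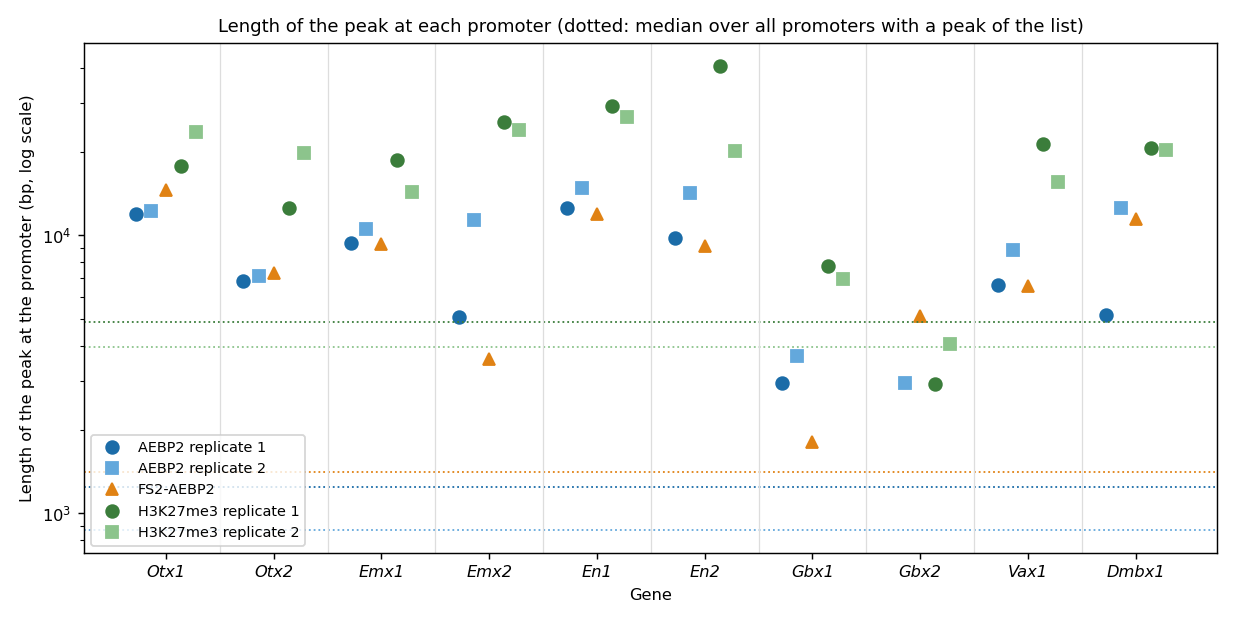
Length in bp, on a log scale, of the longest promoter peak of each gene in each list, 1 point per gene and list; dotted lines are the medians over all protein-coding promoters with a peak of the same list. H3K27me3 points lie at 12589 bp or above for 8 genes and at 7735 bp or below for Gbx1 and Gbx2, and Gbx2 has no point for AEBP2 replicate 1.

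Ordered by the mean H3K27me3 length (± SD, n = 2), En2 came first at 30469.5 ± 14607 bp, followed by En1 at 28078.5 ± 1826 bp and Emx2 at 24792 ± 1205 bp. The range of En2 overlapped those of En1, Emx2, Otx1, Dmbx1 and Vax1, so its place was not resolved, and that of Emx2 lay below that of En1. Otx1 at 20687.5 ± 4085 bp, Dmbx1 at 20543 ± 238 bp, Vax1 at 18450.5 ± 4132 bp, Emx1 at 16526 ± 3024 bp and Otx2 at 16221.5 ± 5137 bp followed, and neighbours in this stretch overlapped. Gbx1 at 7344 ± 553 bp and Gbx2 at 3481 ± 809 bp came last, and the ranges of both were clear of each other and of the other 8 genes.

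For AEBP2 the order began with En1 at 13702.5 bp, Otx1 at 12072 bp and En2 at 12017 bp, and ended with Otx2 at 6999 bp and Gbx1 at 3307.5 bp. The range of En1 overlapped those of En2 and Dmbx1, that of Otx1 overlapped that of En2, and from En2 down to Otx2 neighbouring ranges overlapped at every step, so the order above Gbx1 was largely not resolved. Gbx1 lay below the range of every other gene with both replicates. Over the 9 genes with AEBP2 in both replicates, Spearman's rho of mean AEBP2 and mean H3K27me3 length was 0.767, and that of mean AEBP2 and FS2-AEBP2 length was 0.85. Over all 10 genes, rho of mean H3K27me3 length and gene length was -0.152. With peaks within 1 kb joined, the same values were 0.733, 0.767 and -0.333. These describe points that share the same lists and the same caller layout.

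The scores gave a like picture. The median score rank of the promoter peaks was 88.3% in AEBP2 replicate 1, 90.6% in AEBP2 replicate 2, 94.1% for FS2-AEBP2, 93.3% in H3K27me3 replicate 1 and 96.4% in H3K27me3 replicate 2. Over all promoters with a peak of the list, the medians were 47.2%, 51.9%, 57.5%, 79.4% and 68.1%. Restricted to genes with H3K27me3 in both replicates, they were 54.7%, 63.1%, 61.4%, 83.5% and 74.6%. Gbx2 had the lowest rank in 3 lists, with 57.7% in AEBP2 replicate 2, 83.5% in H3K27me3 replicate 1 and 64.2% in H3K27me3 replicate 2. Otx2, Gbx1 and Dmbx1 shared the lowest rank of 67.7% in AEBP2 replicate 1, and Gbx1 had the lowest for FS2-AEBP2 at 71.9%. Scores are whole numbers, so many peaks of a list tie.

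**Figure D4:**
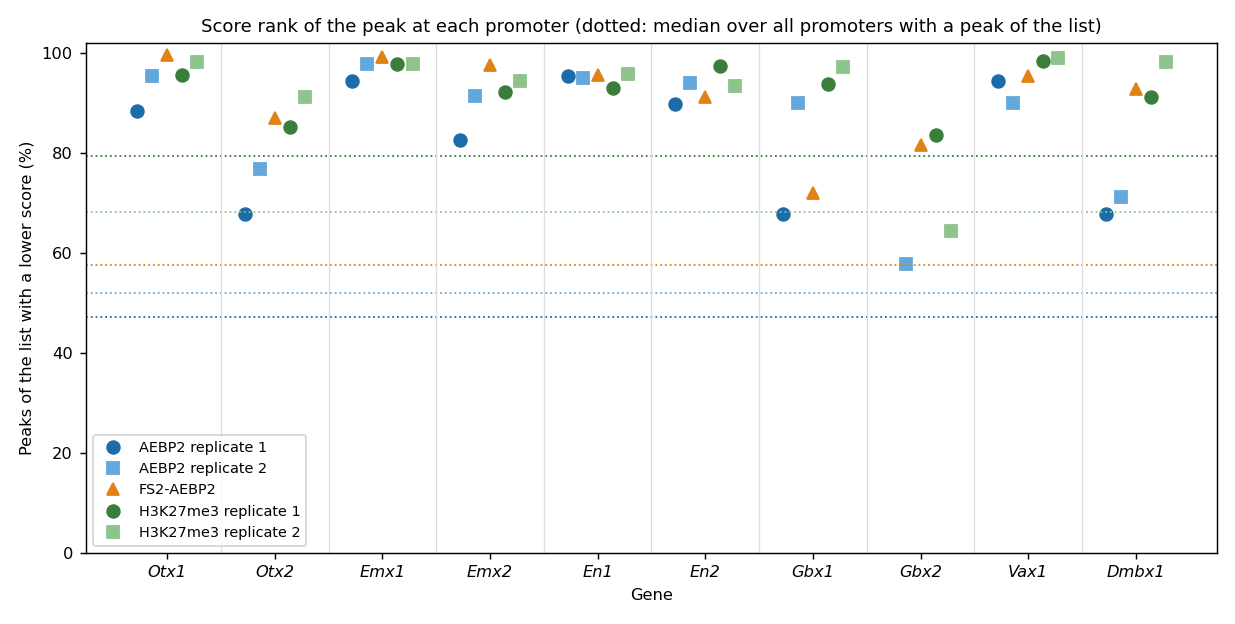
Score rank of the longest promoter peak of each gene in each list, as the percentage of peaks of that list with a lower score; dotted lines are the medians over all protein-coding promoters with a peak of the list. Most points lie above 80%, and Gbx2 falls to 57.7% in AEBP2 replicate 2 and to 64.2% in H3K27me3 replicate 2.

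AEBP2 lay within the H3K27me3 domain at 9 of the 10 genes. In each of the 6 pairings of an AEBP2 or FS2-AEBP2 list with an H3K27me3 replicate, the promoter peak was fully inside the H3K27me3 peaks at all members with such a peak except Gbx2, with 1 further exception, Otx2 in AEBP2 replicate 1 against H3K27me3 replicate 1, where 98.0% was inside. At Gbx2 the share inside was 54.3% to 58.0%. Over all promoters with H3K27me3 in both replicates and a peak of the AEBP2 or FS2-AEBP2 list, between 72.9% and 93.0% of the peaks were fully inside. Full nesting was thus common among marked promoters and is not particular to the group. The AEBP2 peak spanned a median of 38.1% to 56.3% of the length of the H3K27me3 peak, and the FS2-AEBP2 peak 45.2% and 45.4%. At En1, for example, H3K27me3 replicate 1 ran 6609 bp farther upstream and 10222 bp farther downstream than AEBP2 replicate 1.

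Within 10 kb on either side of the start, H3K27me3 covered a median of 92.4% and 93.3% of the sequence in the 10 genes, AEBP2 44.0% and 57.5%, and FS2-AEBP2 53.7%. Over all genes with H3K27me3 in both replicates, the medians were 30.7% and 26.5% for H3K27me3, 0% and 6.81% for AEBP2, and 0% for FS2-AEBP2. Whole gene bodies were inside peaks at 2 and 3 members for AEBP2, 2 for FS2-AEBP2, and 5 and 6 for H3K27me3. No share over other genes was computed for this count, which also depends on gene length, from 4950 bp at Vax1 to 25383 bp at Dmbx1. The extent shared by the replicates had a median of 75.1% of the joint extent for AEBP2 and 74.1% for H3K27me3, beside 63.8% and 67.9% over all promoters with both.

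**Figure D5:**
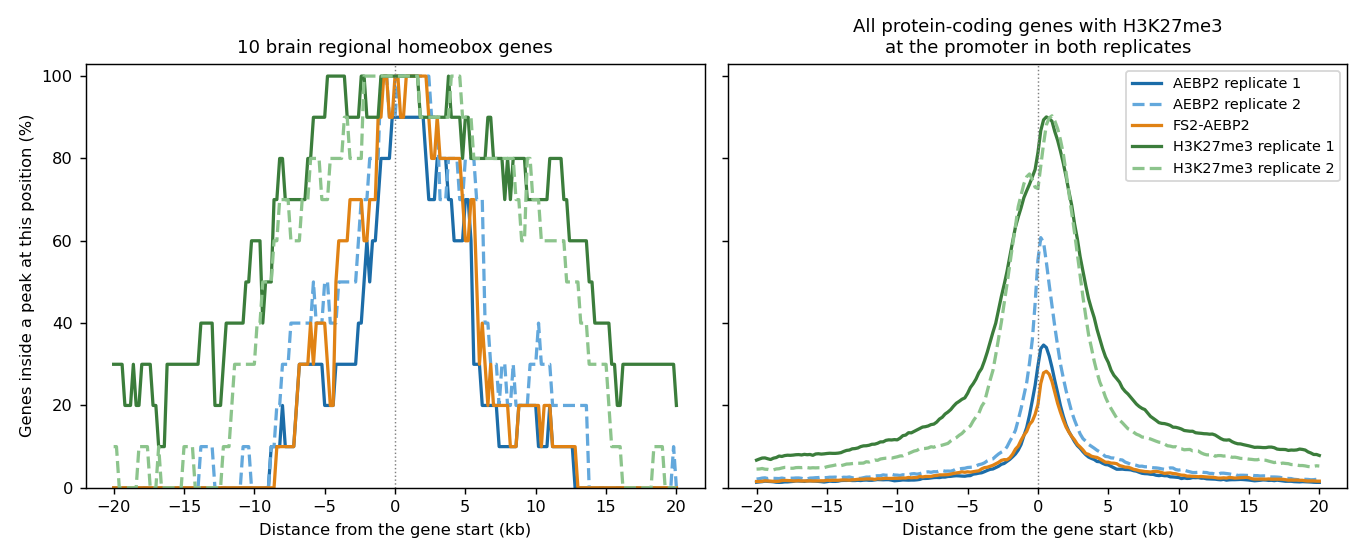
Percentage of genes whose position lies inside a peak, by distance from the gene start in kb, for the 10 brain regional homeobox genes (left) and for all 3349 genes with H3K27me3 at the promoter in both replicates (right), 1 line per list. In the 10 genes the H3K27me3 lines stay high over most of the 10 kb on either side of the start, where the median coverage was 92.4% and 93.3%, while in all marked genes they fall off within a few kb.

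The peaks were then set beside the CpG content of the loci. A CpG-island-like stretch of at least 500 bp with 55% G and C or more lay wholly within the promoter window of 8 of the 10 genes, all but Otx2 and Gbx2, against 54.1% of all protein-coding genes and 83.6% of those with H3K27me3 in both replicates. The H3K27me3 promoter peaks of the 10 genes reached or held 31 such regions, chosen by that overlap, of which 7 contained the start of the gene. Peaks of H3K27me3 covered 29 of them fully in replicate 1 and 30 in replicate 2, and the Gbx2 region was the one covered least. AEBP2 replicate 1 had a peak on 29 of the 31, AEBP2 replicate 2 on 31 and FS2-AEBP2 on 30, counts for which no share over other CpG-island-like regions was computed. The regions not reached by AEBP2 replicate 1 were that of Gbx2 and the one 7410 bp upstream of Emx2, and the latter was also the one missed by FS2-AEBP2. At Otx2, 5 such regions met the H3K27me3 peaks, from 6959 bp upstream to 5670 bp downstream, and all 5 carried peaks of every list. H3K27me3 covered them fully, except that replicate 1 covered 92.0% of the one from 4811 bp to 5670 bp downstream. At that region the calls of AEBP2 replicate 2 and FS2-AEBP2 were the low-ranked peaks in the gene body.

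The annotated transcript starts of the members were also set beside the peaks. The 10 genes have 20 protein-coding transcript starts in GENCODE vM1, of which 17 lay inside peaks of AEBP2 replicate 1, of AEBP2 replicate 2 and of FS2-AEBP2, 18 inside peaks of H3K27me3 replicate 1 and 19 inside peaks of H3K27me3 replicate 2. The 20 include the starts of the 10 gene records, treated above, among them that of Gbx2, which lay outside both AEBP2 replicates. Further starts are annotated only at Otx1, Otx2, Vax1 and Dmbx1, and those outside peaks belonged to Otx2 and Dmbx1. Many of the starts, as at Otx2 and Vax1, lie under the same promoter peak and are not separate observations. No share over the transcript starts of other genes was computed.

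Other genes of brain patterning were counted for context, in lists of secreted signals, forebrain and eye factors, midbrain and boundary factors, and hindbrain factors. Of 30 such genes, 25 had AEBP2 in both replicates, 26 had FS2-AEBP2, 28 had H3K27me3 in both replicates and 25 had all 5 lists. In the same order, the shares over all protein-coding genes were 8.44%, 6.53%, 15.0% and 4.57%. Most of these patterning genes thus shared the calls of the brain regional homeobox genes, which are not particular to that group. The genes without the full set were Fgf17 with no peak at all, Wnt8b with H3K27me3 replicate 1 only, Hesx1 with both H3K27me3 replicates only, Bmp4 without AEBP2 replicate 1 and FS2-AEBP2, and Pax8 without AEBP2 replicate 1. Fgf17, Wnt8b and Bmp4 encode secreted signals, Hesx1 a forebrain homeodomain factor, and Pax8 a paired-box factor of the midbrain-hindbrain border. By the mean of the replicates, the longest H3K27me3 peaks were at Hoxb1 (135110 bp and 125989 bp), which lies in a Hox cluster, at Lmx1b (56743 bp and 90552 bp) and at Pax2 (36085 bp and 36214 bp), although Nr2f1 had 44539 bp in replicate 1 and Hoxa2 36230 bp in replicate 2. The median of the mean H3K27me3 length over these genes was 21039.25 bp, beside 19496.75 bp over the brain regional homeobox genes.

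The nearest relatives of the members diverged. Vax2, the paralogue of Vax1 in the ventral eye, had peaks of all 5 lists, namely AEBP2 peaks of 4538 bp and 10803 bp, an FS2-AEBP2 peak of 18353 bp, and H3K27me3 peaks of 14102 bp and 17903 bp. Crx, the Otx-related factor of photoreceptors, had no peak of any list at its promoter. Of 8 housekeeping genes, 0 had H3K27me3 at the promoter. Since 15.0% of all protein-coding genes had it in both replicates, a count of 0 in 8 says little. AEBP2 was called in both replicates at 3 of the 8 (Actb, Ppia and Sdha), against 8.44% of all genes, with peaks of 248 bp to 1106 bp. Replicate 2 was called at 5 of the 8, against 22.3%, through Gapdh with 749 bp and Polr2a with 1200 bp. FS2-AEBP2 was called at 2 (Actb and Gapdh), against 6.53%. These peaks were shorter than the AEBP2 and FS2-AEBP2 peak taken for each of the 10 genes, the shortest of which were 2939 bp and 1810 bp. Their score ranks were not all lower. In AEBP2 replicates 1 and 2 they were 38.4% and 7.60% at Actb, 72.5% and 51.9% at Ppia, and 47.2% and 98.6% at Sdha. The replicate 2 ranks of Gapdh and Polr2a were 25.2% and 71.1%, beside a lowest member rank of 57.7% there, at Gbx2. Among the members, the lowest rank in replicate 1 was 67.7% and the highest in replicate 2 was 97.7%. FS2-AEBP2 ranks were 48.6% at Actb and 16.9% at Gapdh.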

How the data were processed

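ChIP-seq was performed by the authors in mESCs, and peaks were called by them separately in each sample. The submitters' processing notes name Bowtie, SAMtools, Picard, MACS2 2.0.10.2 and mm9. Thresholds and the control library are not given in the sources used here. The deposited value used is a whole-number score per peak, of unstated scale, that was used only as a rank within a list. Lists were matched to samples by the sample records. For H3K27me3, replicate numbers in the list names appear swapped against those records, so which is replicate 1 is uncertain. No columns of other samples were present.

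The numbered chromosomes 1 to 19 and both sex chromosomes were kept, leaving out peaks elsewhere, 2 of 2879 for AEBP2 replicate 1 and 13 of 9288 for H3K27me3 replicate 2. A promoter peak overlapped the window of 1000 bp on either side of the start by at least 1 bp, and the longest was taken where several did. Windows of 500 bp moved in steps of 10 bp were called CpG-island-like from 55% G and C and a CpG ratio, observed over expected, of 0.65 upwards, and were joined. RefSeq promoter sequences were matched for 7 of the 10 genes.

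The genes named are all 10 members, their closest relatives, genes starting in a member's H3K27me3 peak, and, from the lists, genes that depart from the majority call and those with the longest H3K27me3 peaks. Members and lists were chosen with earlier results of these data known. The marker Tfcp2l1 was not matched by name. Alternatives were windows of 2.5 kb and 0.5 kb, coverage of at least 50% of the window, peaks reaching the median score of their list, any transcript start, joined peaks, another rank and each replicate left out. Overlap code was tested on simulated data. Versions were Python 3.11.15, matplotlib 3.10.9, pysam 0.24.0, scipy 1.17.1, pandas 2.3.3 and numpy 2.4.6.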

Additional observations from a re-analysis of the deposited data

How the results depend on the processing

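The counts of genes with AEBP2, FS2-AEBP2, H3K27me3 or all 5 lists at the promoter were 9, 10, 10 and 9. They stayed so under every window, coverage, score, transcript-start and joining alternative. Of these, the 2.5 kb window, the added transcript starts and joining could not lower a count by their construction. RefSeq start sites, an alternative chosen after seeing the data, gave the same counts. In that alternative Otx1, En2 and Gbx1 had no match and kept their GENCODE starts. Without AEBP2 replicate 1, the counts for AEBP2 and for all 5 lists were 10, through Gbx2. Joining peaks within 1 kb raised the median H3K27me3 length from 19496.75 bp to 21131.5 bp and the median FS2-AEBP2 length from 8263 bp to 10742.5 bp. Leaving out each replicate gave 19687.5 bp to 19997.5 bp for H3K27me3 and 6844 bp to 10941 bp for AEBP2, whose median with both was 8879 bp. Correlations with joined peaks were added after seeing the data. The AEBP2 score rank of 91.8% became 88.3% to 90.6%. Counting lower or equal scores moved the FS2-AEBP2 rank from 94.1% to 94.4%. Peak lengths depend on the caller's joining and on unknown depth, and 2 replicates give little hold on the spread. No paired analysis was possible because the lists hold no read counts and the results come from no test.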
